A study of Mus musculus with 9 samples.

Results

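The pre-mRNA splicing factors described here are the mouse genes whose single array symbol starts with Srsf, Sfrs, Hnrnp, Hnrp, Sf3a, Sf3b, Snrp or U2af. Choosing by symbol gave 53 genes of the 16299 on the array, covered by 792 of the 208397 probe sets that carry exactly 1 symbol. By family, 18 genes were hnRNPs with 291 probe sets, 9 were SR proteins with 120, and 8 were SR-related proteins with 167. A further 8 belonged to the SF3A and SF3B complexes with 146 probe sets, 8 were snRNP proteins (Snrp) with 55, and 2 were U2AF subunits with 13. Of the 53, 49 could be tested among 11342 genes, because 3 had fewer than 3 probe sets and 1 was too dim. Genes are named by their current symbol; 18 carried an older one on the array. Sfrs10 keeps its array name because RefSeq lists that older symbol for both Tra2b and Srsf2. Srsf2 also stood on the array separately, as Sfrs2 with 9 probe sets.

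RNA from the perigonadal fat depot (white adipose tissue) of 4 months old mice was hybridised to 9 Affymetrix exon arrays. There were 3 arrays from mice homozygous for G609G (G609G/G609G), 3 from mice homozygous for LCS (LCS/LCS) and 3 from wild-type mice (WT). Both alleles are germline changes in Lmna, the gene for the A-type lamins of the nuclear envelope: G609G is the progeria allele, which opens a cryptic splice site and yields progerin, and LCS is the allele known for leaving lamin C as the product. The whole tissue was taken, so every cell type in it contributed RNA, and fewer cells of a type cannot be told apart from less RNA per cell. The submitters describe biological replicates, but nothing ties each array to a separate animal, so the p-values measure only how these samples scatter, and that scatter may be technical.

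Splicing is carried out by the spliceosome, in which small nuclear RNAs are held by Sm and snRNP-specific proteins. U2AF recognises the 3′ splice site, and SF3A and SF3B anchor the U2 particle at the branch point. SR proteins bind exonic enhancers and generally favour the use of a site, while hnRNPs coat the pre-mRNA and often act against it. Many of these genes control their own transcripts through exons that lead to decay. SRSF1 and SRSF6 are known in human cells to bind the LMNA exon in which the progeria site lies.

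The deposited values are log2 intensities. Their median over each array was 6.57 ± 0.06 in G609G, 7.23 ± 0.04 in LCS and 7.21 ± 0.06 in WT (SD, n = 3 each), and the median gene was 0.47 lower in G609G than in WT. Values and differences below are therefore relative to the median gene, on the log2 scale, unless they are said to be as deposited. A gene was called at an adjusted p under 0.05 in limma, with Benjamini-Hochberg adjustment over all 11342 genes. As deposited, each difference of G609G minus WT is about 0.46 lower, and many directions then turn. The 14 skeletal muscle markers measured summed to between 16.08 and 16.14 on the log2 scale in G609G, 11.22 to 11.25 in LCS and 10.30 to 10.32 in WT, and all 14 were called higher in G609G than in WT. The 10 adipocyte markers summed to 15.27 to 15.33 in G609G, 15.73 to 15.75 in LCS and 15.57 to 15.65 in WT, and the 15 epididymis and testis markers to 14.66 to 14.69 in G609G, 15.53 to 15.58 in LCS and 15.94 to 16.09 in WT. Of these 15, 1 was called higher and 13 lower in G609G than in WT, with a median difference of -1.51. In LCS, 3 were called higher and 9 lower than in WT, with a median difference of -1.55, a larger fall than in the sums. Over all genes, 22.3% were called higher and 17.7% lower in LCS than in WT. Against LCS, 9 were called higher and 6 lower in G609G, with a median difference of 0.70, so the sums do not give the direction of most markers there. Over all genes, 36.9% were called in each direction between G609G and LCS. The 7 macrophage markers summed to 11.58 to 11.73 in G609G, 12.73 to 12.78 in LCS and 12.45 to 12.51 in WT. The part of these other cell types in the results below was not tested.

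Set against WT, the splicing factors were mostly higher in G609G relative to the median gene. Of the 49 tested, 34 (69.4%) were called higher and 2 lower, where 34% of all genes were called higher and 36.7% lower. The median of the 49 differences was 0.35, with a range of -0.39 to 1.23, against -0.01 over all genes. As deposited, 4 were called higher and 20 lower, with a median of -0.11 against -0.47 over all genes, of which 8.26% were called higher and 71.3% lower. The arrays of G609G and WT did not overlap for 35 of the 49, where the share over all genes was 71.6%. Among the 725 probe sets of these genes, 364 had all G609G arrays above all WT arrays and 39 had them all below, where these shares were 24.6% and 28.4% of all 159219 probe sets above the intensity filter.

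**Figure D1:**
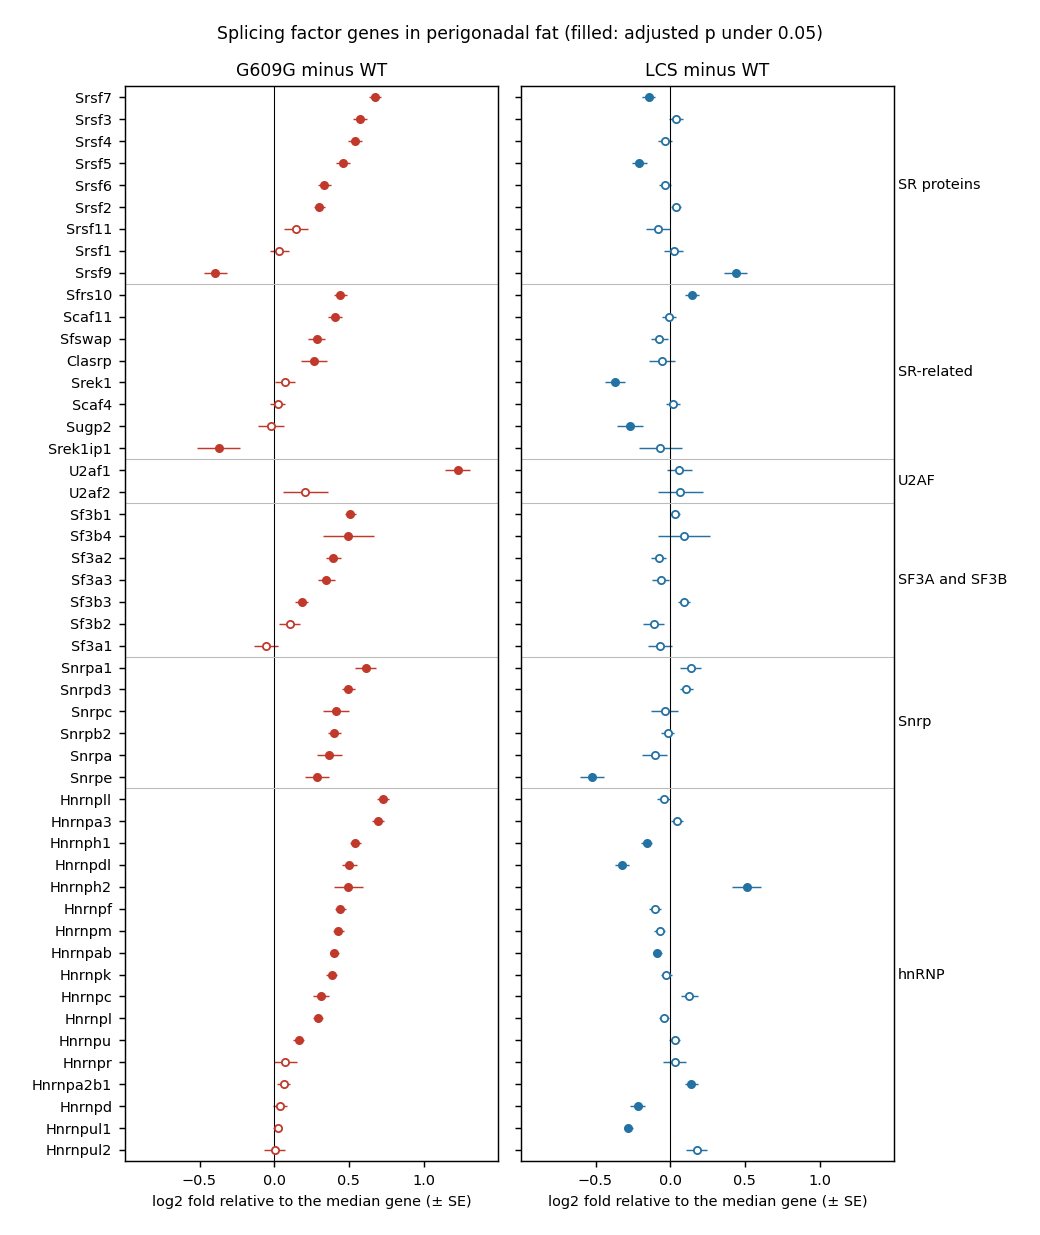
Log2 difference relative to the median gene (x axis), with its standard error, for each of the 49 tested splicing factors (y axis, by family), in 1 panel for each mutant minus WT. Filled points were called. In the G609G panel, 34 points are called above 0 and 2 below, while as deposited the counts are 4 and 20.

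The splicing factors are brighter than most genes, with a median mean intensity of 8.90 against 7.68 over all genes. Among the 37 splicing factors with a mean above 8, the median difference of G609G minus WT was 0.38, with 28 called higher and 1 lower. Over all 4809 genes as bright, the median was 0.01, with 40.8% called higher and 40.7% lower. The 12 dimmer splicing factors had a median of 0.19, with 6 higher and 1 lower, where the 6533 genes as dim had a median of -0.01, with 29% higher and 33.7% lower.

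U2af1, the U2AF subunit that contacts the AG of the 3′ splice site, showed the largest difference of all 49 members. It read 8.05, 7.97 and 8.29 on the G609G arrays, 6.96, 6.99 and 6.87 on the LCS arrays, and 6.92, 6.89 and 6.81 on the WT arrays. The G609G arrays stood apart from all 6 others, and LCS and WT overlapped. U2af1 rose by 1.23 in G609G (SE 0.09, limma adjusted p = 8.38e-08), a 2.34-fold difference, and as deposited it was still 0.76 higher (adjusted p = 5.2e-06). In all 9 of its probe sets above the intensity filter, all G609G arrays lay above all WT arrays, as in 24.6% of all probe sets. Its partner U2af2, which binds the pyrimidine tract, read 7.95, 8.09 and 8.65 in G609G, 8.02, 8.19 and 8.05 in LCS, and 7.93, 7.91 and 8.23 in WT. Those groups overlapped, and the difference of 0.21 between G609G and WT was not called (adjusted p = 0.238).

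In the SF3A and SF3B complexes, 5 of 7 tested genes were called higher in G609G than in WT and none lower relative to the median gene, while as deposited none was higher and 3 were lower. At an unadjusted p under 0.05 in limma, 0 were lower relative to the median gene and 0 higher as deposited. For this and the other families, 34% of all genes were called higher and 36.7% lower relative to the median gene. As deposited, these shares were 8.26% and 71.3%. Sf3b1, which contacts the branch point and is a frequent target of mutation in blood cancers, read 10.50, 10.50 and 10.56 in G609G, 10.06, 10.04 and 10.02 in LCS, and 9.99, 10.07 and 9.97 in WT. Its arrays in G609G lay above all others, and it rose by 0.51 in G609G (SE 0.03, adjusted p = 7.65e-08). Sf3b3, a scaffold of the SF3B complex, read 9.32, 9.31 and 9.41 in G609G, 9.26, 9.24 and 9.26 in LCS, and 9.13, 9.15 and 9.21 in WT. The G609G arrays were again the highest, and Sf3b3 rose by 0.18 over WT (adjusted p = 0.00173). Sf3a2 rose by 0.40, Sf3a3 by 0.35 and Sf3b4 by 0.50, the last with an adjusted p of 0.022 over only 3 probe sets, which was 0.0564 without WT replicate 1 and 0.0577 without G609G replicate 1. Sf3b2 differed by 0.10 and Sf3a1 by -0.06, and neither was called.

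All 6 tested snRNP proteins were called higher in G609G than in WT relative to the median gene, with a median of 0.41, whereas as deposited limma called 0 in either direction, and 1 was lower at an unadjusted p under 0.05. Snrpa1, the U2 protein A′, read 8.42, 8.59 and 8.39 in G609G, 7.92, 8.08 and 7.97 in LCS, and 7.81, 7.81 and 7.95 in WT. G609G lay above both other groups, and Snrpa1 rose by 0.61 over WT (SE 0.07, adjusted p = 8.18e-06). Snrpa, the U1 protein A, read 10.12, 9.96 and 9.71 in G609G, 9.40, 9.51 and 9.47 in LCS, and 9.64, 9.50 and 9.54 in WT. The G609G arrays spread widely but stayed above the rest, for a rise of 0.37 over WT (adjusted p = 0.00182). The Sm core protein Snrpd3 rose by 0.50, the U1 protein Snrpc by 0.41 and the U2 protein Snrpb2 by 0.40. The Sm core protein Snrpe rose by 0.29 (adjusted p = 0.00722), a call that was lost without WT replicate 3 (adjusted p = 0.0787).

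Among the SR proteins, 6 of 9 were called higher and 1 lower in G609G than in WT relative to the median gene, against 1 higher and 4 lower as deposited. As deposited, 71.3% of all genes were called lower. Srsf7, an SR protein with a zinc knuckle, read 9.69, 9.78 and 9.79 in G609G, 8.94, 8.92 and 8.94 in LCS, and 9.11, 9.02 and 9.11 in WT. The 3 groups did not overlap, with G609G highest and LCS lowest. Srsf7 rose by 0.67 in G609G (SE 0.04, adjusted p = 3.43e-08) and was 0.21 higher as deposited (adjusted p = 0.00689). Srsf3, the smallest of the family, read 9.84, 9.98 and 9.89 in G609G, 9.36, 9.34 and 9.40 in LCS, and 9.25, 9.40 and 9.34 in WT. It rose by 0.57 (adjusted p = 4.23e-07) while LCS and WT overlapped.

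Srsf5 read 10.46, 10.46 and 10.59 in G609G, 9.81, 9.81 and 9.88 in LCS, and 10.14, 10.01 and 9.98 in WT, again with G609G highest and LCS lowest. It rose by 0.46 in G609G (SE 0.05, adjusted p = 4.48e-06), a difference that was -0.0033 as deposited. Srsf2, an activator of many exons, read 10.69, 10.74 and 10.78 in G609G, 10.45, 10.45 and 10.51 in LCS, and 10.40, 10.43 and 10.47 in WT. Srsf6 read 10.25, 10.31 and 10.36 in G609G, 9.99, 9.97 and 9.85 in LCS, and 9.97, 9.96 and 9.98 in WT. In both, G609G lay above the 6 other arrays, and the rises over WT were 0.30 for Srsf2 and 0.34 for Srsf6. Srsf4 rose by 0.54, and Srsf11 differed by 0.15 without a call (adjusted p = 0.123).

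Srsf1, the best studied SR protein, read 8.43, 8.61 and 8.67 in G609G, 8.55, 8.52 and 8.60 in LCS, and 8.49, 8.51 and 8.60 in WT. The 3 groups overlapped fully, and the difference of 0.03 between G609G and WT (SE 0.06) was not called (adjusted p = 0.637). Srsf9, a short SR protein related to Srsf1, ran against its family. It read 7.97, 8.15 and 7.98 in G609G, 8.93, 8.84 and 8.82 in LCS, and 8.42, 8.28 and 8.58 in WT, and no group overlapped another. Srsf9 fell by 0.39 in G609G (SE 0.08, adjusted p = 0.000571), and as deposited it fell by 0.86. In 3 of its 6 probe sets all G609G arrays lay below all WT arrays, as in 28.4% of all probe sets, and in 0 they all lay above. The fall was not shared by every probe set, as 1 of them (5234421) averaged 8.53 in G609G and 8.38 in WT.

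**Figure D2:**
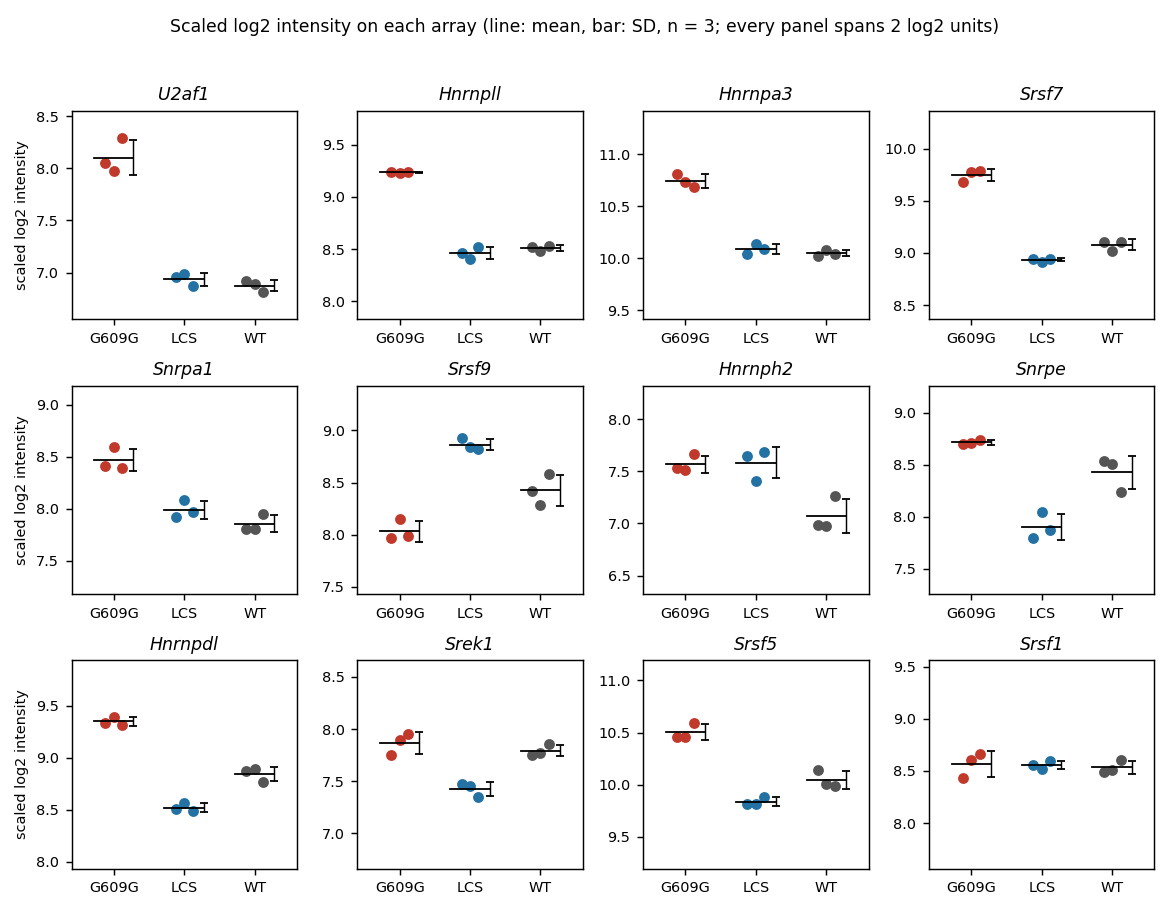
Scaled log2 intensity (y axis) on each of the 3 arrays of G609G, LCS and WT (x axis) for splicing factors described in the text, with 1 point per array, the mean as a line and the SD as a bar (n = 3). U2af1 and Srsf7 are highest in G609G, Srsf9 is lowest there and highest in LCS, and Srsf1 overlaps in all groups.

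Sequences just before the start sites of U2af1, Srsf7 and Srsf9 are shown because these genes gave the largest rise, the largest rise among SR proteins and the largest fall. They are RefSeq sequences on GRCm38.p6, the 150 bases before the start and 5′ to 3′ on the gene's strand, with capitals marking each GC box (GGGCGG or its reverse complement CCGCCC). U2af1 lies at chr17:31658765-31658914 on the minus strand, from the first of its 2 listed starts. Srsf7 lies at chr17:80207306-80207455 on the minus strand, and Srsf9 at chr5:115327027-115327176 on the plus strand.
U2af1: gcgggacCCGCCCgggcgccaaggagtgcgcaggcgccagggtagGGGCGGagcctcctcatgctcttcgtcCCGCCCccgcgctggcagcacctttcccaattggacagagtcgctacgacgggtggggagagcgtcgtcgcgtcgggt
Srsf7: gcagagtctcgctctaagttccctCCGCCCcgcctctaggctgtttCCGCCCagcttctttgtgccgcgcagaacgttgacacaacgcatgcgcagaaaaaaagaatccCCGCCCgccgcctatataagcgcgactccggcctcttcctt
Srsf9: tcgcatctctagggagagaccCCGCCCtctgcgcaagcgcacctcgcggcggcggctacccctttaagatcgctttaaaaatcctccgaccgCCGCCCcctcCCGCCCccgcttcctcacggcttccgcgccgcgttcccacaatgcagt

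Each of the 3 stretches held 3 GC boxes and no CCGGAA. RefSeq windows of 300 bases, 250 before and 50 after a start, were found for 46 of the 53 members, 64 windows in all. On either strand, CCGGAA, the core of ETS sites, stood in 50% of these windows against 14.9% of all 32851 windows. The window of Srsf7 held 1 such match, though the shorter stretch shown above held none. GCGCA followed by any base and GCGC, a form of the NRF1 site, stood in 21.9% against 4.6%, and GGGCGG in 73.4% against 35.7%. CCAAT stood in 40.6% against 37.4%, TATAAA in 10.9% against 13.6%, and AAGATGGCG, a form of the YY1 site, in 1.56% against 1.4%. These matches describe letters only, and the promoters were not measured here.

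The SR-related genes had a median of 0.17, with 4 of 8 called higher and 1 lower in G609G than in WT relative to the median gene, against none higher and 5 lower as deposited. Over all genes, 34% were called higher and 36.7% lower, and as deposited 8.26% and 71.3%. Sfrs10 read 8.69, 8.73 and 8.73 in G609G, 8.47, 8.41 and 8.37 in LCS, and 8.25, 8.29 and 8.28 in WT. The groups did not overlap, and Sfrs10 rose by 0.44 in G609G (adjusted p = 2.51e-06). Scaf11, an SR-related protein that interacts with spliceosome components, rose by 0.40. Sfswap, a regulator that also controls its own splicing, rose by 0.28, and Clasrp, which binds the kinase Clk4, by 0.27. The Clasrp call was lost without WT replicate 3 or G609G replicate 1 or 2 (adjusted p = 0.0717 to 0.0994). Scaf4, which binds RNA polymerase II and acts on where transcripts end, differed by 0.02 and was not called. Srek1ip1 fell by 0.37 (adjusted p = 0.0354), but its arrays overlapped those of WT, and the call was lost without any 1 of the WT arrays or without G609G replicate 1 or 2 (adjusted p = 0.0536 to 0.164).

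Among the hnRNPs, 12 of 17 were called higher and none lower in G609G than in WT relative to the median gene, with a median of 0.38, against 2 higher and 8 lower as deposited. At an unadjusted p under 0.05 in limma, the count of hnRNPs lower relative to the median gene was 0 as well. As deposited, 71.3% of all genes were called lower. Hnrnpll, a regulator of Ptprc splicing in lymphocytes, read 9.24, 9.23 and 9.23 in G609G, 8.46, 8.41 and 8.52 in LCS, and 8.52, 8.48 and 8.53 in WT. Hnrnpa3, a relative of Hnrnpa1 that packages pre-mRNA, read 10.81, 10.73 and 10.68 in G609G, 10.04, 10.14 and 10.09 in LCS, and 10.02, 10.08 and 10.04 in WT. For both genes G609G stood apart, while LCS and WT overlapped. Hnrnpll rose by 0.73 (SE 0.04, adjusted p = 1.82e-08) and Hnrnpa3 by 0.69 (SE 0.04, adjusted p = 1.61e-08). As deposited they were still higher, by 0.26 and 0.23, and with U2af1 and Srsf7 they were the 4 members called higher on both scales.

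Hnrnpk, which binds C-rich sequence, read 11.86, 11.86 and 11.80 in G609G, 11.40, 11.47 and 11.42 in LCS, and 11.50, 11.49 and 11.37 in WT. Hnrnpl, which binds CA repeats, read 10.25, 10.21 and 10.28 in G609G, 9.89, 9.91 and 9.94 in LCS, and 9.95, 9.98 and 9.92 in WT. Hnrnpc, which binds runs of U, read 9.18, 9.26 and 9.31 in G609G, 8.99, 9.17 and 9.04 in LCS, and 8.87, 8.97 and 8.98 in WT. The rises over WT were 0.38, 0.29 and 0.31 for the 3 genes, each without overlap. Hnrnph1, which binds G runs, rose by 0.54, Hnrnpf, of the same subfamily, by 0.44, Hnrnpm by 0.43, Hnrnpab by 0.40 and Hnrnpu by 0.16.

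Hnrnpa2b1, which packages pre-mRNA and sorts RNA, read 9.74, 9.73 and 9.83 in G609G, 9.85, 9.89 and 9.79 in LCS, and 9.74, 9.73 and 9.64 in WT. Hnrnpd, which also steers the decay of AU-rich mRNAs, read 9.06, 9.05 and 9.04 in G609G, 8.81, 8.80 and 8.76 in LCS, and 8.93, 9.12 and 8.98 in WT. Neither was called between G609G and WT, where the differences were 0.06 and 0.04. Hnrnpr, Hnrnpul1 and Hnrnpul2 differed from WT by 0.07, 0.02 and 0.00 and were not called either.

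**Figure D3:**
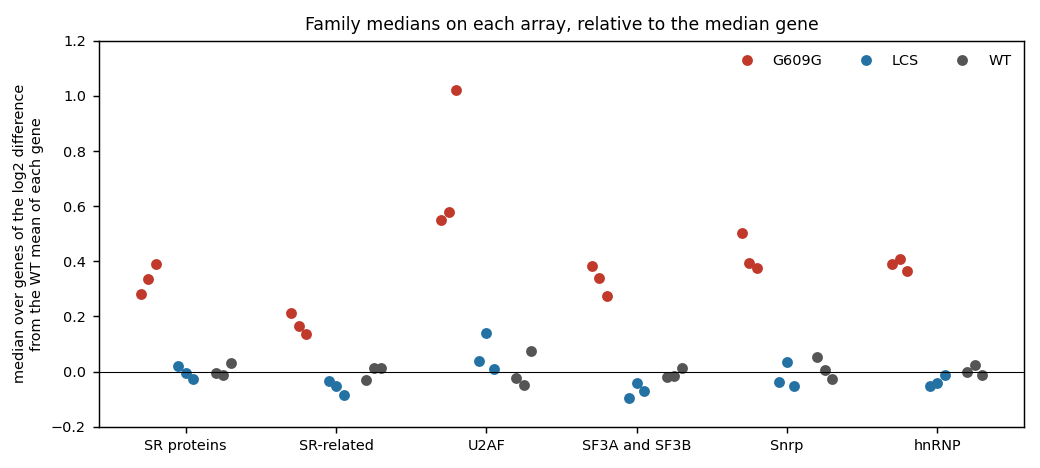
Median over the tested genes of each family (y axis, log2 difference from the WT mean relative to the median gene) on each array of G609G, LCS and WT (x axis, by family). In G609G all families lie above 0 on every array, with hnRNPs at 0.37 to 0.41; as deposited G609G values are about 0.46 lower. In LCS all families lie between -0.09 and 0.14.

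LCS minus WT gave few higher calls among the splicing factors, while the lower calls were near their share over all genes. Of the 49, 4 (8.16%) were called higher and 10 (20.4%) lower relative to the median gene. Over all genes, 22.3% were called higher and 17.7% lower. The median difference was -0.03, against 0.02 over all genes. As deposited, 5 were called higher and 6 lower, where 22.5% and 13% of all genes were. The arrays of LCS and WT did not overlap for 23 of the 49, where the share over all genes was 57.8%. Among the 7 SF3A and SF3B genes and the 2 U2AF genes limma called 0 in either direction, and at an unadjusted p under 0.05 only Sf3b3 passed, higher by 0.09.

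The largest rise in LCS was in Hnrnph2, the X-linked relative of Hnrnph1. It read 7.53, 7.51 and 7.66 in G609G, 7.65, 7.41 and 7.69 in LCS, and 6.98, 6.98 and 7.26 in WT, so both mutants lay above WT and overlapped each other. Its difference was 0.50 in G609G minus WT and 0.51 in LCS minus WT (SE 0.10 for each, adjusted p = 0.000701 and 0.00129), and -0.02 between the mutants (adjusted p = 0.892). As deposited it was 0.03 higher in G609G than in WT and was not called. Of the 6 Hnrnph2 probe sets, 3 had all LCS arrays above all WT arrays, as did 19.5% of all probe sets. All G609G arrays lay above all WT arrays in 2 of the 6, as in 24.6% of all probe sets. Srsf9, whose values are given above, rose by 0.44 in LCS (adjusted p = 0.000621), with all 6 of its probe sets above WT without overlap, as were 19.5% of all probe sets. Sfrs10 rose by 0.15 and Hnrnpa2b1 by 0.14, but neither call held throughout. The adjusted p of Sfrs10 was 0.054 to 0.083 without WT replicate 1, WT replicate 3 or LCS replicate 1. That of Hnrnpa2b1 was 0.0573 to 0.214 without any 1 WT array, G609G replicate 1, or LCS replicate 1 or 2.

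The largest fall in LCS was in Snrpe, which read 8.70, 8.70 and 8.74 in G609G, 7.80, 8.04 and 7.87 in LCS, and 8.53, 8.50 and 8.24 in WT. The 3 groups did not overlap, and Snrpe fell by 0.52 in LCS (SE 0.08, adjusted p = 0.000274), with 4 of 5 probe sets below WT without overlap, as were 16.5% of all probe sets. Srek1, an SR-related splicing regulator, read 7.75, 7.90 and 7.95 in G609G, 7.47, 7.45 and 7.35 in LCS, and 7.75, 7.77 and 7.86 in WT. LCS lay below both other groups, and Srek1 fell by 0.37 (adjusted p = 0.001). Hnrnpdl, a relative of Hnrnpd, read 9.34, 9.39 and 9.31 in G609G, 8.50, 8.57 and 8.49 in LCS, and 8.87, 8.89 and 8.77 in WT. It fell by 0.32 in LCS (adjusted p = 0.000162) and rose by 0.50 in G609G (adjusted p = 1.27e-06), with no overlap between any groups.

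Hnrnpul1, an hnRNP U-like protein, read 10.35, 10.35 and 10.37 in G609G, 10.06, 10.04 and 10.05 in LCS, and 10.36, 10.32 and 10.32 in WT. Its arrays were close together within each group, and it fell by 0.28 in LCS (SE 0.03, adjusted p = 9.52e-06). In LCS, 14 of its 19 probe sets lay below WT without overlap, as did 16.5% of all probe sets. Sugp2, an SR-related protein with G-patch domains, read 6.55, 6.41 and 6.30 in G609G, 6.15, 6.19 and 6.18 in LCS, and 6.40, 6.54 and 6.39 in WT. It fell by 0.27 in LCS (adjusted p = 0.028), a call lost without WT replicate 2 or 3 or any 1 LCS array (adjusted p = 0.0523 to 0.125). Of the other members called, Hnrnpd fell by 0.22, Srsf5 fell by 0.21, Hnrnph1 fell by 0.16, Srsf7 fell by 0.14 and Hnrnpab fell by 0.09. The Hnrnpab call was lost without WT replicate 2 or 3 or LCS replicate 2 or 3 (adjusted p = 0.0502 to 0.211). As deposited, the falls of Srek1, Hnrnpdl, Hnrnpul1, Hnrnpd, Srsf5 and Snrpe were still called.

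G609G and LCS were also compared directly, on the same G609G arrays as above. Relative to the median gene, 37 of the 49 splicing factors were called higher in G609G than in LCS and 2 lower, where 36.9% of all genes were called in each direction. As deposited, 8 were called higher and 22 lower, where 9.38% and 70.5% of all genes were. The arrays did not overlap for 40 of the 49, where the share over all genes was 75.3%. Srsf9 fell by 0.83 in G609G against LCS (adjusted p = 8.78e-07) and Hnrnpul2 fell by 0.18 (adjusted p = 0.039), a call lost without any 1 WT or LCS array or G609G replicate 1 or 2 (adjusted p = 0.0638 to 0.186). Snrpe rose by 0.81, Hnrnpdl by 0.83, Srsf7 by 0.82 and U2af1 by 1.17, and these 4 were also called higher as deposited.

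Because exon arrays carry several probe sets per gene, each probe set was also compared with the rest of its own gene, so that an offset of an array cancels. In limma's diffSplice, 94 of the 724 member probe sets tested differed from their gene between G609G and WT, 36 of them higher and 58 lower, in 41 of 52 genes. Over all 158136 probe sets tested, 7.05% were called higher and 8.6% lower, so the members' share of 13% is close to the 15.6% called in all. With each probe set's own spread in place of the gene's (a splicing index), 64 were called, and 42 were called both ways. The 58 called lower had a median mean intensity of 7.07 and the 36 called higher 9.72, and over all called probe sets the medians were 6.94 and 7.82. In 8 of the 58 the G609G mean lay under the intensity filter, so a fall there may be understated. A call of lower is against the rest of the gene, and can also arise where the probe set itself did not fall. A probe set of Hnrnpa3 (5232510) was called lower but averaged 7.14 in G609G and 6.90 in WT. Whether each of the 58 fell by itself was not tested. Where a probe set lies within its gene was not used here.

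**Figure D4:**
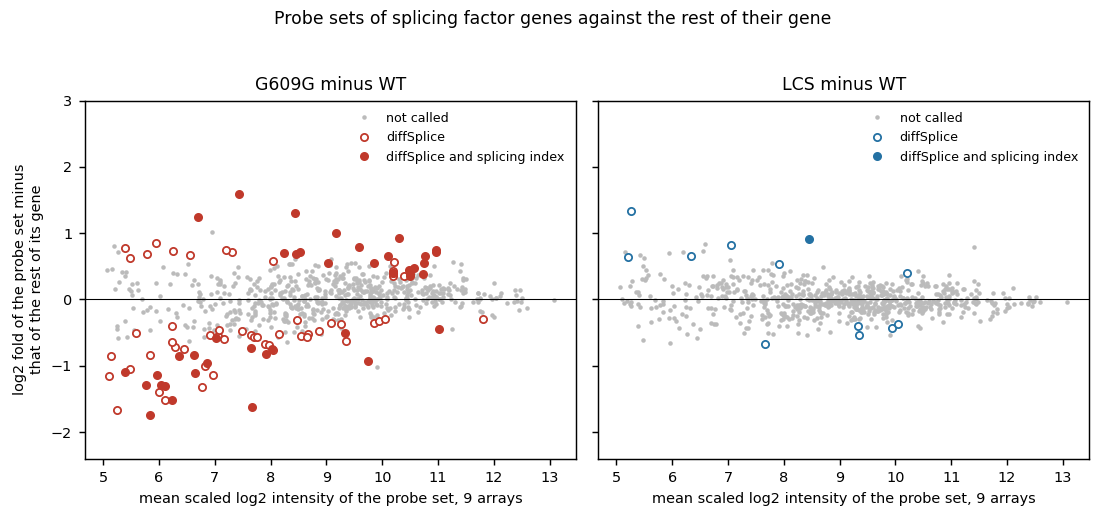
Log2 difference of each member probe set from the rest of its gene (y axis) against its mean scaled intensity (x axis), in 1 panel for each mutant minus WT. Open circles were called by diffSplice, filled circles also by the splicing index. In G609G minus WT, 36 are called higher and 58 lower, and the lower ones lie toward dim intensities.

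The lowest p in G609G minus WT was for a probe set of Scaf4 (4733347), which read 4.19, 4.18 and 5.25 in G609G, 7.06, 6.40 and 6.51 in LCS, and 6.60, 6.32 and 6.11 in WT. All G609G arrays were below the 6 others, and the probe set fell by 1.75 against its gene (diffSplice adjusted p = 1.66e-12, splicing index adjusted p = 0.00591), although the Scaf4 gene value was not called. A probe set of Sf3a1 (5554643) read 4.80, 5.10 and 5.35 in G609G, 7.08, 6.44 and 7.09 in LCS, and 6.59, 7.03 and 6.59 in WT. It fell by 1.52 against its gene (adjusted p = 1.74e-08, splicing index 0.00455), with a G609G mean of 5.08, close to the filter. Another Sf3a1 probe set (4538709) rose by 1.25 (adjusted p = 3.27e-06). A probe set of Hnrnpd (4558950) read 6.43, 6.38 and 7.65 in G609G, 7.81, 7.54 and 7.49 in LCS, and 8.34, 8.45 and 8.85 in WT. It fell by 1.62 (adjusted p = 1.53e-10, splicing index 0.0104), without overlap between G609G and WT.

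A probe set of Srsf5 (4315529) fell by 1.39 against its gene in diffSplice, 1 of Hnrnpc (4426427) fell by 1.66 and 1 of Hnrnpa2b1 (5232189) fell by 1.52. None of these 3 was called by the splicing index (adjusted p = 0.0635, 0.0645 and 0.0584). In G609G the Hnrnpc probe set averaged 4.30, under the intensity filter of 5.01, and the Hnrnpa2b1 probe set averaged 5.01, close to it. The Srsf5 probe set read 5.38, 5.30 and 5.53 in G609G but 7.38, 6.13 and 5.52 in WT, so its groups overlapped. In Hnrnpa3, 17 of 40 probe sets were called in diffSplice, where 15.6% of all probe sets were, and 8 of the 17 also by the splicing index. In 35 of the 40 all G609G arrays lay above all WT arrays, and in 0 they all lay below. Those shares were 24.6% and 28.4% of all probe sets above the intensity filter. The calls of this gene are therefore differences between probe sets that mostly rose.

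LCS minus WT called 12 member probe sets, 7 higher and 5 lower, in 9 genes. That is 1.66% of those tested, where 1.85% of all probe sets were called, 1.03% higher and 0.819% lower. Only 1 of them was called by the splicing index as well, a probe set of Hnrnpr (5014756). It read 8.83, 9.06 and 8.92 in G609G, 8.67, 8.64 and 8.65 in LCS, and 7.68, 7.68 and 7.87 in WT, so both mutants lay well above WT. It rose by 0.91 against its gene in LCS (adjusted p = 0.00402, splicing index 0.00659) and by 1.30 in G609G (adjusted p = 6.19e-07, splicing index 0.00034), while the Hnrnpr gene value was called in neither. Of the named LCS calls, those of 1 probe set each in Hnrnpll (4959993), Hnrnpa3 (4998617), Hnrnpul1 (5433884) and Clasrp (5138455) were lost without 1 or more single arrays.

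Between G609G and LCS, 98 member probe sets were called, 35 higher and 63 lower, in 43 genes, and 50 of them also by the splicing index. That is 13.5% of those tested, where 18.2% of all probe sets were called, 8.13% higher and 10% lower. The Scaf4 probe set was again first (diffSplice adjusted p = 1.7e-16), followed by 1 of Hnrnpu (5288360), which was 0.91 lower against its gene in G609G than in LCS (adjusted p = 8.28e-12).

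Lists of other genes that act in splicing were counted in the same way. Of 57 tested genes of the core spliceosome, 39 were called higher and 3 lower in G609G than in WT relative to the median gene, against 4 higher and 28 lower as deposited. For this list and the next lists, the shares over all genes are those given above, 34% higher and 36.7% lower in G609G, and 22.3% higher and 17.7% lower in LCS. As deposited, 8.26% of all genes were called higher and 71.3% lower in G609G than in WT. Sf1, the first branch point protein, rose by 1.09 and was 0.63 higher as deposited. The helicases Dhx8 and Dhx15 rose by 1.07 and 0.78, and Smndc1, a spliceosome assembly factor, by 0.77. In LCS, 6 of the 57 were called higher and 12 lower than in WT, and Lsm8, of the ring that holds the U6 RNA, rose by 0.61. Lsm3, of the same ring, fell by 0.33, the spliceosomal isomerase Ppil1 fell by 0.57 and Sf1 fell by 0.20.

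Of 20 SR protein kinases and SR-like proteins, 11 were called higher and 3 lower in G609G than in WT relative to the median gene, against 2 higher and 13 lower as deposited. The SR protein kinases Clk4 and Clk1 rose by 0.80 and 0.67, and were 0.34 and 0.21 higher as deposited, whereas the kinase Srpk2 fell by 0.75. Son, a nuclear speckle protein, rose by 0.41 but was -0.05 as deposited. In LCS, 2 of the 20 were called higher and 7 lower than in WT. Clk1 fell by 0.26, 3300001P08Rik (now Luc7l3, related to a U1 protein of yeast) fell by 0.39 and the speckle protein Srrm2 fell by 0.12, and Tnpo3, the importer of SR proteins, rose by 0.18.

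Of 34 other splicing regulators, 24 were called higher and 7 lower in G609G than in WT relative to the median gene, against 4 higher and 20 lower as deposited. A2bp1 (now Rbfox1), a splicing regulator of muscle and brain, rose by 3.73, on the same arrays in which all 14 muscle markers were higher. Mbnl3, a muscleblind protein, fell by 2.79 in G609G and fell by 2.82 in LCS, both against WT. Rbm39 rose by 0.83 in G609G and by 0.44 in LCS. Ptbp2, the neural relative of Ptbp1, rose by 0.92 in G609G and fell by 0.43 in LCS, and Rbm35a (now Esrp1), an epithelial regulator, fell by 0.72 in LCS. In LCS, 5 of the 34 were called higher and 10 lower than in WT.

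The spread between arrays of 1 group was small for most splicing factors. The median SD over the 49 was 0.0672 in G609G, 0.0448 in LCS and 0.0533 in WT. The highest SD was 0.389 for Srek1ip1 in G609G, 0.332 for Sf3b4 in LCS and 0.304 for Sf3b4 in WT. Of the 4 genes not tested, Hnrnpa1, which packages pre-mRNA and often favours exon skipping, had 1 probe set, with 9.922, 9.908 and 9.750 in G609G, 9.273, 9.631 and 9.354 in LCS, and 9.100, 8.998 and 9.134 in WT. The 3 groups did not overlap. Sf3b5 averaged 8.40 ± 0.14 in G609G, 8.24 ± 0.08 in LCS and 8.14 ± 0.14 in WT (SD, n = 3 each) over 2 probe sets. Snrpd2, an Sm core protein, averaged 7.25 ± 0.50 in G609G, 7.36 ± 0.06 in LCS and 7.94 ± 0.40 in WT over 2 probe sets. Snrpd1, under the intensity filter, averaged 4.63 ± 0.16 in G609G, 4.26 ± 0.06 in LCS and 4.23 ± 0.04 in WT.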

How the data were processed

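The authors deposited 229581 log2 intensities for each of 9 exon arrays. The sources used here do not give their normalization; mm9 stands in the submitters' processing notes. The design text counts 10 samples, of which 9 had an array to analyse here. Probe sets with 1 symbol in the platform annotation were used (208397); 3965 with several and 17219 with none were left out. No pair of arrays shared more than 1.89% of values.

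Gene values are median polishes (at most 10 rounds) of a gene's probe sets. The test covered 11342 genes, those with at least 3 probe sets whose mean passed 5.09 (the 25th percentile). Arrays were shifted until the median of their deviations from the gene means was 0. limma 3.58.1 (lmFit, eBayes with a trend, R 4.3.3) was fitted over 9 arrays with Benjamini-Hochberg adjustment at 0.05. Probe sets over 5.01 (their own 25th percentile) went into diffSplice, which uses 1 spread per gene. The number of arrays limits the precision. Every member could be named; those given on each array are the 5 largest rises and falls per mutant plus a fixed set. Probe sets named are the 6 lowest p per comparison, 1 per gene, and pathway genes the 4 lowest p per list. Members and lists were chosen with earlier results of these data known.

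On simulated data for G609G minus WT over 11342 genes, 100 genes were changed by 0.3 and 100 by 1. Of these changes, 57% and 100% were recovered. In the data themselves 3858 genes were called higher and 4160 lower, so the shares recovered need not hold there. Over 158136 probe sets, 61% of changes of 1 and 100% of changes of 2 were recovered, but 503 unchanged probe sets were called too, so splicing index calls are given beside those of diffSplice. For LCS minus WT, 481 unchanged probe sets were called in the simulation, where 2925 probe sets were called in the data. Deviations of same-numbered arrays of G609G and WT from their group means correlated with r of 0.168, 0.145 and 0.337, all above the threshold of 0.1 set for pairing. For G609G and LCS, r was -0.121, 0.121 and 0.107, and for LCS and WT -0.113, 0.204 and 0.0854. Arrays with different numbers were not compared, so these values cannot show that arrays with the same number share anything. The labels do not say what a number shares. Alternatives were the scaling, summary, filter, variance trend, groups fitted, replicate block, the methods' t-test, the splicing index, leaving out each array and, chosen after seeing the data, cyclic loess.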

Additional observations from a re-analysis of the deposited data

How the results depend on the processing

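Counts are member genes called higher, then lower, relative to the median gene unless said. The G609G counts depend on the scaling between arrays, and the cause of the offset was not tested. As deposited they were 4 and 20 for G609G minus WT and 8 and 22 for G609G minus LCS, and 6 were lower for LCS minus WT. The count of 2 lower was 1, in both G609G minus WT and G609G minus LCS, with array medians set equal, no variance trend, only the 2 groups compared, the methods' t-test after Benjamini-Hochberg adjustment, and cyclic loess. For G609G minus LCS it was 5 with no filter and 1 above the 50th percentile. Higher calls in LCS minus WT were 7 with plain means of probe sets and 7 with only the 2 groups. The methods' t-test at a fold of 1.5 gave 5 and 0 for G609G minus WT, 0 and 0 for LCS minus WT, and 8 and 1 for G609G minus LCS.

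With the replicate number as a block, G609G minus WT gave 34 higher and 2 lower again. For LCS minus WT, where not every same-numbered pair correlated above 0.1, the block gave 5 and 9, and 8 higher with only the 2 groups compared; member probe sets higher in LCS were 11.

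Leaving out 1 array gave 32 to 34 higher and 1 to 2 lower for G609G minus WT, 2 to 6 and 8 to 10 for LCS minus WT, and 34 to 38 and 1 to 3 for G609G minus LCS; the 2 higher in LCS came without WT replicate 1 or 3. The count of 1 lower came without any 1 WT array or G609G replicate 1 or 2 for G609G minus WT, and without these or any 1 LCS array for G609G minus LCS. Member probe sets ranged over 23 to 56 higher and 36 to 66 lower for G609G minus WT, 4 to 16 and 1 to 6 for LCS minus WT, and 17 to 52 and 37 to 72 for G609G minus LCS. The lowest counts came without WT replicate 2 (23 and 36) and without LCS replicate 1 (17 and 37), with 20 and 18 higher without LCS replicates 2 and 3, and the 56 came without G609G replicate 3. For LCS minus WT, 16 and 11 were higher without G609G replicates 3 and 1, which enter through the shared spread, and 4 without LCS replicate 3; 1 was lower without WT replicate 1, WT replicate 3 or LCS replicate 1, 2 without LCS replicate 2 or 3, and 3 without WT replicate 2. The splicing index gave 28 lower for G609G minus WT, 1 and 1 for LCS minus WT, and 40 lower for G609G minus LCS; only the 2 groups compared gave 37 lower for G609G minus WT, and 18 and 8 for LCS minus WT.

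As deposited, 32 of the 49 G609G differences from WT turned, 31 of them called on at least 1 scale, the exception being U2af2. From LCS, 32 turned and 30 were so called, while 3 differences of LCS from WT turned and 0 were so called. For G609G minus WT the deposited values were Hnrnpa2b1 -0.40, Hnrnpab -0.06, Hnrnpc -0.15, Hnrnpd -0.42, Hnrnpf -0.02, Hnrnpk -0.079, Hnrnpl -0.17, Hnrnpm -0.033, Hnrnpr -0.39, Hnrnpu -0.30, Hnrnpul1 -0.44, Hnrnpul2 -0.46, Sf3a2 -0.067, Sf3a3 -0.11, Sf3b2 -0.36, Sf3b3 -0.28, Srsf1 -0.43, Sfrs10 -0.020, Srsf11 -0.32, Srek1 -0.39, Scaf4 -0.44, Clasrp -0.19, Srsf2 -0.16, Scaf11 -0.058, Srsf5 -0.0033, Srsf6 -0.13, Sfswap -0.18, Snrpa -0.093, Snrpb2 -0.06, Snrpc -0.05 and Snrpe -0.17. For G609G minus LCS they were Hnrnpab -0.0088, Hnrnpc -0.31, Hnrnpd -0.24, Hnrnpk -0.086, Hnrnpl -0.16, Hnrnpr -0.45, Hnrnpu -0.36, Hnrnpul1 -0.19, Sf3a1 -0.48, Sf3a2 -0.023, Sf3a3 -0.083, Sf3b1 -0.02, Sf3b2 -0.28, Sf3b3 -0.41, Srsf1 -0.49, Sfrs10 -0.20, Srsf11 -0.27, Srek1 -0.057, Sugp2 -0.25, Scaf4 -0.49, Clasrp -0.18, Srsf2 -0.23, Scaf11 -0.085, Srsf6 -0.13, Sfswap -0.14, Snrpa -0.025, Snrpa1 -0.021, Snrpb2 -0.077, Snrpc -0.047 and Snrpd3 -0.11. Hnrnpul1 in G609G minus WT was -0.093 with quantile normalization and -0.12 with no filter, and Hnrnpd -0.18 with plain means. In G609G minus LCS with no filter, Hnrnpu was -0.035 and Scaf4 -0.17. Over the 49 genes, 3 comparisons and all alternatives, 2883 differences stayed on their side of the threshold, 197 lost and 82 gained a call, and 66 turned with a call under at least 1 of the settings compared.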
